A study of Mus musculus with 8 samples.

Results

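The constitutive proteasome is the cell's standard protease for ubiquitin-tagged proteins, and its subunits are encoded by the mouse gene families Psma, Psmb, Psmc and Psmd. The transcripts of these genes were measured in RNA from haematopoietic stem cells, which had been sorted from bone marrow as cells with Kit, Sca-1 and CD150 and without lineage markers or CD48. Members were the protein-coding genes named Psma, Psmb, Psmc or Psmd followed by a number, leaving out the interferon-inducible Psmb8, Psmb9 and Psmb10, that had at least 10 counts in at least 4 of the 8 libraries. This gave 35 members of 36 candidates, among 53715 genes in the count files, of which 14086 passed the same count rule. The 1 candidate below the rule was Psmb11, the beta subunit known from the thymus, with 0 counts in all 8 libraries, which allows at most 0.131 to 0.179 CPM (3 counts per library), CPM being counts scaled to the size of the library. The member closest above the rule was Psmd3, with 118 to 582 counts per library.

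The 4 libraries labelled Heterozygote came from mice described as Gata2; Mx1-Cre Heterozygote, and the 4 WT libraries from mice described as Wild Type. Mx1-Cre is a recombinase transgene that interferon switches on, in blood and in other tissues, and pIpC, a mimic of double-stranded RNA, induces interferon. All mice of both genotypes were 8 to 12 weeks old and had received 6 doses of pIpC, so no library shows the proteasome genes without that treatment. Since Mx1-Cre is named in the description of the heterozygotes alone, if the WT mice lacked it, the transgene and the Gata2 allele cannot be told apart. Each genotype had 4 mice and 1 library per mouse.

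Library totals were 16750778 to 22861884 counts, with 16976 to 17906 genes detected per library. Transcripts of Gata2, the targeted gene, were not lower under the heterozygote label, at 35.5, 61.9, 36.7 and 45.1 CPM in heterozygote-labelled replicates 1 to 4, against 30.1, 45.3, 29.1 and 38.5 CPM in WT replicates 1 to 4. Gata2 differed by 0.33 on the log2 scale (SE 0.23), with an adjusted p of 0.858 by edgeR, and the 95% interval ran from 0.873-fold to 1.80-fold. With the GC and length trends of the libraries removed, 0 genes had an adjusted p under 0.05 by edgeR. Gata2 then differed by 0.60 on the log2 scale, with an unadjusted p of 0.0347 by edgeR. Every direction below therefore follows the label and not a measured loss of Gata2. The summed level of 8 stem cell markers was 737 to 835 CPM in heterozygote-labelled libraries and 662 to 945 CPM in WT libraries, within which Ly6a (Sca-1, used in the sort) was higher under the heterozygote label without overlap, at 124 to 156 CPM against 77.1 to 117 CPM in WT. The 7 lymphoid markers summed to at most 0.109 CPM in heterozygote-labelled libraries and 1.602 CPM in WT libraries, where WT replicate 2 held 0.923 CPM of Cd4 and 0.680 CPM of Cd79a, while Cd3e, Il7r, Cd8a and Rag1 were at 0 in all 8. The 7 megakaryocyte and platelet markers summed to 488 to 787 CPM in heterozygote-labelled libraries and 640.5 to 945 CPM in WT libraries, most of it Pf4. Of these 7, 6 had a negative log2 fold change, and Vwf did not overlap, at 13.6 to 18.7 CPM under the heterozygote label and 25.3 to 37.6 CPM in WT. The 8 granulocyte and monocyte markers summed to 31.0 to 121 CPM under the heterozygote label and 49.9 to 127 CPM in WT, and the 7 erythroid markers to 46.6 to 94.7 CPM under the heterozygote label and 52.8 to 148 CPM in WT. The 5 markers of multipotent progenitors did not overlap in their sum, at 916 to 1076 CPM in heterozygote-labelled libraries and 670.4 to 834 CPM in WT libraries. Most of that gap came from Cd53, with a mean of 306 CPM under the heterozygote label and 179 CPM in WT, and Emb, with 235 and 152 CPM. Cd34 and Cd48 had log2 fold changes of 0.003 and 0.06, and Flt3, at a lower level, of 0.88. The part of these marker differences in any value below was not tested.

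The proteasome is a barrel, the 20S core, capped by the 19S regulatory particle. The core stacks rings of alpha subunits, which form the gate and dock the cap, and rings of beta subunits, of which Psmb5, Psmb6 and Psmb7 cut proteins. In the cap, the base holds the Psmc ATPases that unfold substrates and Psmd subunits that bind ubiquitin, and the lid holds Psmd14, which removes ubiquitin. Blood stem cells are known for a low rate of protein synthesis and a dependence on protein quality control. The genes of the complex are known to be induced together by the transcription factor NRF1 (Nfe2l1), which binds antioxidant response elements in their promoters.

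Because that element is the shared promoter feature with a known link to these genes, its core was looked for in promoter windows taken from RefSeq on build GRCm38.p6. A window ran from 250 bases before a transcription start to 50 bases after it, and 28 of the 35 members had one. The letters TGACNNNGC, read on both strands, were present in 5 members (17.9%), compared with 13.99% of the 27025 genes in the table. They were also present in 10 of 32 genes of the wider pathway with a window, among them Adrm1, Mafg and Nfe2l2. The match is a description of letters and not of binding. The 60-base stretches that carry the match in the 5 members, 1 chaperone, 2 beta subunits, 1 lid subunit and 1 ATPase, are given below on each gene's own strand, 5′ to 3′. Capitals mark the match, which in Psmd12 and Psmc6 lies on the opposite strand and so reads as its reverse complement.

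Psmd9 (chr5:123228130-123228189, plus strand): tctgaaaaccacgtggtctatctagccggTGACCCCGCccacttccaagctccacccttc
Psmb6 (chr11:70525297-70525356, plus strand): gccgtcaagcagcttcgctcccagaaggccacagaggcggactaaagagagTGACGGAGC
Psmb5 (chr14:54618023-54618082, minus strand): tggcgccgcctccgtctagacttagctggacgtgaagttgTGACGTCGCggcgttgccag
Psmd12 (chr11:107479278-107479337, plus strand): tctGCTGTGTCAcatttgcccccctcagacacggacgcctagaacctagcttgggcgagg
Psmc6 (chr14:45329574-45329633, plus strand): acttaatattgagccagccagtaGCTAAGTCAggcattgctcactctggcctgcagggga

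The match began 9 bases before the start in Psmb6, 31 in Psmd9 and 47 in Psmb5, and at position -247 in Psmd12 and -227 in Psmc6. In Psmb6, Psmd9 and Psmb5 it thus lay close to the start, and in Psmd12 and Psmc6 near the far end of the window.

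Most subunit genes were more abundant than the median gene of these cells. To compare genes, TMM-scaled CPM were divided by the length of a gene's merged exons, which gives CPM per kilobase. By this measure the median member stood at 139 CPM per kilobase over the 8 libraries, against 3.77 for all genes tested, a level that all members but Psmd3 exceeded. The 15 members of the core had a median of 175 CPM per kilobase. The 20 members of the regulatory particle, counted with its 3 assembly chaperones, had a median of 90.5. The highest was Psmb1, a structural beta subunit, at 813 CPM per kilobase, followed by the catalytic subunit Psmb6 at 604 and by Psmb2, Psma6 and Psma5 between 378 and 390.3.

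At the lower end stood Psmb7 at 42.0 and Psmd1, the large scaffold of the base, at 38.1 CPM per kilobase. Below a gap followed Psma8 at 11.7, the chaperone Psmd9 at 5.33 and the lid subunit Psmd3 at 2.75. Psma8 is known as the testis form of the alpha subunit that Psma7 supplies elsewhere, and Psma7 stood at 303 CPM per kilobase, so the name constitutive does not describe Psma8. Of the 34 pairs of neighbours in this order, 7 kept the same order in all 8 libraries, among them Psmb1 over Psmb6 and Psmb6 over Psmb2, and the other pairs changed order in at least 1 library.

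The order depended on the length used. With the length of the principal transcript in place of merged exons, Psmb6 came first at 1416 and Psma7 was next at 1020.0 CPM per kilobase, Psmb1 was at rank 5, and Psmb7 stood at 124. Psmd3 at 6.37, Psma8 at 11.7 and Psmd9 at 14.9 CPM per kilobase remained the lowest 3 members.

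**Figure D1:**
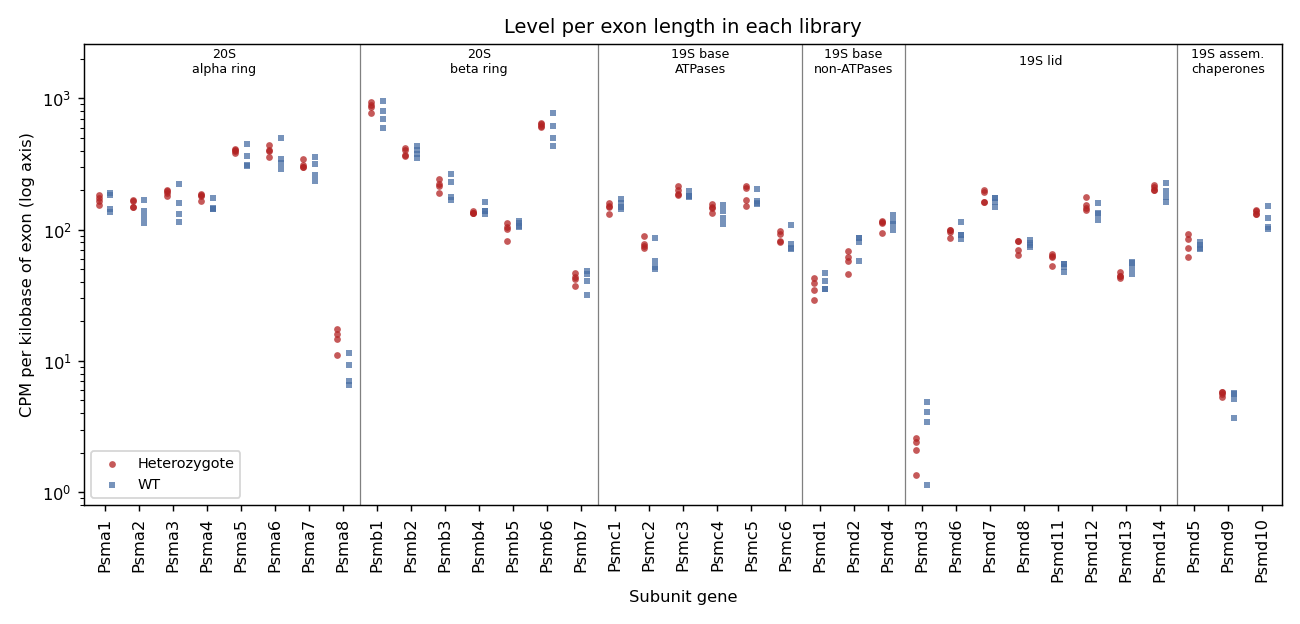
Level of each of the 35 subunit genes in each library, in TMM-scaled CPM per kilobase of merged exon on a log axis, with 1 point per mouse, heterozygote-labelled libraries as red circles left of WT libraries as blue squares, grouped by role. Psmb1 and Psmb6 lie highest, and Psma8, Psmd9 and Psmd3 lie apart below the other members in both genotypes.

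No subunit gene passed the test between genotypes. Of the 35 members, all of which entered the test, 0 had an adjusted p under 0.05 by edgeR, where 0 of all 13992 genes tested (0.0%) did, and the smallest adjusted p among members was 0.850. With an unadjusted p under 0.05 there were 3 members, Psma4 and Psma8 higher and Psmd2 lower under the heterozygote label, beside 5.66% of all genes, 2.37% higher and 3.29% lower. In DESeq2 0 members had an adjusted p under 0.05 (all genes 0.207%), and 5 had an unadjusted one, beside 7.4%. In limma voom with sample quality weights the counts were 0 members by adjusted p (all genes 0.0%) and 8 by unadjusted p, beside 10.1%. No member had groups that did not overlap, which 3.47% of all genes showed, 1.65% higher and 1.82% lower under the heterozygote label.

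The differences of most members were small. Log2 fold changes, heterozygote label over WT, had a median of 0.11 over the members and -0.02 over all genes tested, and were positive for 26 members (74.3%), where 48.0% of all genes were. With libraries scaled by library size alone, 20 members were positive with a median of 0.05, and the median of all genes was -0.08. The 95% interval lay within a 2-fold difference in either direction for 33 of the 35 members and within a 1.5-fold difference for 30. Leaving aside Psma8, Psmd3 and Psmd2, no member was beyond 0.35 on the log2 scale. In RNA from a whole sorted population, fewer cells of a type and less RNA per cell cannot be told apart.

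**Figure D2:**
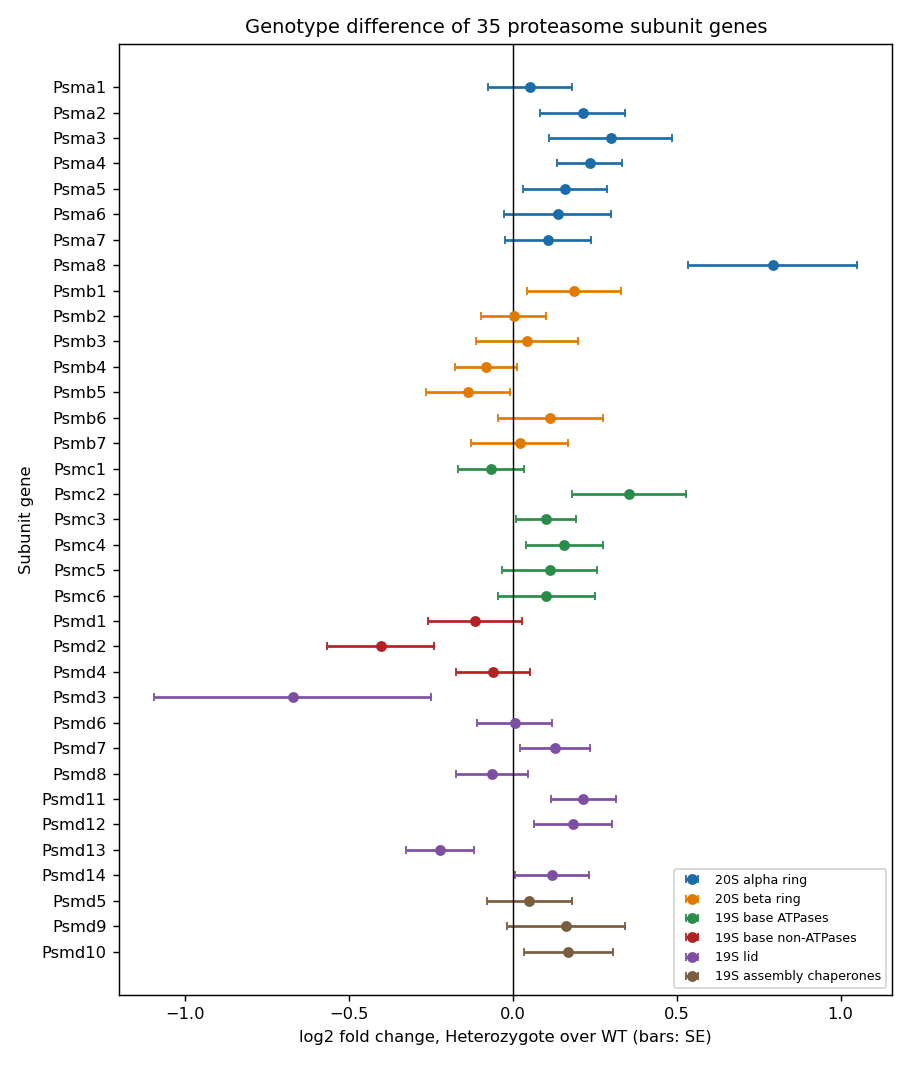
Log2 fold change of each subunit gene, heterozygote label over WT, from edgeR, with bars of 1 SE and colours by role (n = 4 libraries each). Members lie between -0.67 (Psmd3) and 0.79 (Psma8), and 26 of the 35 points lie right of 0.

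The 8 genes of the alpha ring, which form the outer rings and the gate, all had positive log2 fold changes, between 0.05 and 0.79 with a median of 0.19, and the median stayed between 0.13 and 0.21 under the other scalings and with the trend on GC content removed. Psma8 (ENSMUSG00000036743.3, GRCm38 chromosome 18 from 14706151 to 14762299, plus strand) had 29.5, 18.7, 27.4 and 24.9 CPM in heterozygote-labelled replicates 1 to 4, against 15.6, 11.8, 19.5 and 11.1 CPM in WT replicates 1 to 4. Heterozygote-labelled replicate 2 and WT replicate 3 overlapped, and the other libraries separated by label. Psma8 differed by 0.79 on the log2 scale (SE 0.26), a fold change of 1.73 with a 95% interval of 1.16 to 2.58 and an adjusted p of 0.850 by edgeR.

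Psma4 (ENSMUSG00000032301.13, GRCm38 chromosome 9 from 54950790 to 54958030, plus strand), another alpha subunit, had 424, 441, 436 and 394 CPM in heterozygote-labelled replicates 1 to 4, against 338, 339, 415 and 349 CPM in WT replicates 1 to 4. Its WT replicate 3 lay inside the heterozygote-labelled range, and the other 3 WT libraries lay below it. Psma4 differed by 0.23 on the log2 scale (SE 0.10), with an adjusted p of 0.850 by edgeR. Psma6, the most abundant alpha subunit per exon length, had 439, 503, 542 and 489 CPM in heterozygote-labelled libraries, against 401, 355, 612 and 427 CPM in WT libraries. WT replicate 3 was its highest library and WT replicate 2 its lowest, so the heterozygote-labelled values lay within the WT range, with a log2 fold change of 0.14 (SE 0.16), which was 0.05 without WT replicate 2 and 0.32 without WT replicate 3.

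The 7 genes of the beta ring that were detected had log2 fold changes between -0.14 and 0.19, with a median of 0.02 that became -0.03 when libraries were scaled by library size alone. Psmb5, which carries the chymotrypsin-like site, had 90.3, 73.9, 101 and 94.8 CPM in heterozygote-labelled replicates 1 to 4, against 101, 94.3, 96.1 and 105 CPM in WT replicates 1 to 4. Replicate 2 under the heterozygote label was low, and the other libraries overlapped. Its fold change was 0.909 with a 95% interval of 0.745 to 1.11.

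Psmb6, which carries the caspase-like site, had 1131, 1201, 1219 and 1147 CPM in heterozygote-labelled libraries, against 931, 817, 1443 and 1151 CPM in WT libraries. The 4 WT values spread on both sides of the heterozygote-labelled ones, and the fold change was 1.08 (95% interval 0.844 to 1.39). The log2 fold change of 0.11 became 0.01 without WT replicate 2 and 0.28 without WT replicate 3. Psmb7, which carries the trypsin-like site, had 127, 159.8, 148 and 144 CPM in heterozygote-labelled libraries, against 138, 108, 167 and 158 CPM in WT libraries. The groups overlapped throughout, with a fold change of 1.01 (95% interval 0.806 to 1.27) whose sign turned under library-size scaling and in 4 other settings. For none of the 3 catalytic subunits did the interval reach a difference of 1.5-fold.

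Psmb1 had 806, 919, 970.4 and 889.5 CPM in heterozygote-labelled libraries, against 725, 613, 989 and 825 CPM in WT libraries. Its WT libraries held both the lowest and the highest value, and the log2 fold change was 0.19 (SE 0.14).

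Of the 6 ATPases of the base, 5 had a positive log2 fold change, the range being -0.07 to 0.35 and the median 0.11. Psmc2 had 393, 453, 377 and 362 CPM in heterozygote-labelled replicates 1 to 4, against 263, 291, 437 and 251 CPM in WT replicates 1 to 4. WT replicate 3 lay among the heterozygote-labelled libraries and the other 3 WT libraries below all of them. Psmc2 differed by 0.35 on the log2 scale (SE 0.17), with an adjusted p of 0.850 by edgeR, and by 0.56 with WT replicate 3 left out. Psmc3, the most abundant ATPase per exon length, had 478, 564, 489 and 527 CPM in heterozygote-labelled libraries, against 465, 467, 513 and 473 CPM in WT libraries. Its groups overlapped, with a log2 fold change of 0.10 (SE 0.09), the smallest standard error among the members.

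The 3 remaining subunits of the base all had negative log2 fold changes, with a median of -0.12. Psmd2 (ENSMUSG00000006998.15, GRCm38 chromosome 16 from 20651652 to 20663414, plus strand), a scaffold that binds ubiquitin-like domains of shuttle factors, had 252, 232, 186 and 277 CPM in heterozygote-labelled replicates 1 to 4, against 348, 349.9, 231 and 323 CPM in WT replicates 1 to 4. WT replicate 3 was again the library inside the heterozygote-labelled range, and the other 3 lay above it. Psmd2 differed by -0.40 on the log2 scale (SE 0.16), a fold change of 0.756 with a 95% interval of 0.587 to 0.973 and an adjusted p of 0.850 by edgeR. Removal of the GC and length trends of the libraries gave a log2 fold change of -0.24.

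Psmd1, the other large scaffold, had 285, 253, 212 and 311 CPM in heterozygote-labelled libraries, against 295, 257, 339 and 259 CPM in WT libraries, with a log2 fold change of -0.12 (SE 0.14). Psmd4, a receptor for ubiquitin chains, had 322, 314, 264 and 327 CPM in heterozygote-labelled libraries, against 281, 308, 325 and 365 CPM in WT libraries. Both genes overlapped between labels. The log2 fold change of Psmd4 was -0.06 (SE 0.11), and it was 0.11 with the GC trend removed.

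The 8 genes of the lid had log2 fold changes between -0.67 and 0.22, with a median of 0.06. Psmd3, a lid scaffold, had 12.1, 12.9, 6.76 and 10.4 CPM in heterozygote-labelled replicates 1 to 4, against 24.1, 20.4, 5.65 and 17.1 CPM in WT replicates 1 to 4. WT replicate 3 was the lowest library of all and the other 3 WT libraries were the highest. The log2 fold change of -0.67 had an SE of 0.42, the largest among the members, and an adjusted p of 0.851 by edgeR. It was -0.96 without WT replicate 3 and -0.36 with the GC trend removed.

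Psmd13, another lid subunit, had 162, 144, 151 and 150.0 CPM in heterozygote-labelled libraries, against 192, 188, 156 and 173 CPM in WT libraries. The groups overlapped in 1 library of each label, the heterozygote-labelled replicate 1 and WT replicate 3. Its log2 fold change of -0.22 (SE 0.10, adjusted p = 0.850 by edgeR) was -0.01 with the GC trend removed. Psmd14, the deubiquitinase of the lid and its most abundant gene per exon length, had 567, 616, 570.2 and 593 CPM in heterozygote-labelled libraries, against 500.0, 462, 643 and 556 CPM in WT libraries, with a log2 fold change of 0.12 (SE 0.11).

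The 3 Psmd genes that encode chaperones of 19S assembly had log2 fold changes between 0.05 and 0.17. Psmd10 (gankyrin), on the X chromosome, had 192, 207, 204 and 192 CPM in heterozygote-labelled libraries, against 149, 154, 222 and 182 CPM in WT libraries. WT replicate 3 was the highest of the 8 and the other WT libraries the lowest, with a log2 fold change of 0.17 (SE 0.13). Psmd9 had 42.2, 40.4, 38.5 and 42.0 CPM in heterozygote-labelled libraries, against 41.6, 40.8, 26.5 and 36.9 CPM in WT libraries. It was low in WT replicate 3 and nearly level in the other libraries, with a log2 fold change of 0.16 (SE 0.18).

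Most of the spread of the subunit genes lay between the WT mice. The median deviation of the 35 members from their own 8-library means was 0.01, 0.11, 0.08 and 0.06 on the log2 scale in heterozygote-labelled replicates 1 to 4, against -0.15, -0.20, 0.15 and -0.04 in WT replicates 1 to 4. WT replicate 2 was the lowest library of the 8 for 17 members, where 15.0% of all genes had their lowest value, and WT replicate 3 was the highest for 15 members, where 13.5% of all genes had their highest. The members together took 1.34%, 1.39%, 1.36% and 1.36% of counts in heterozygote-labelled libraries, against 1.27%, 1.23%, 1.45% and 1.33% in WT libraries. The heterozygote-labelled libraries thus lay close together, and inside the range of the WT libraries.

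The SD of log2 CPM was smaller under the heterozygote label for 26 of the 35 members, with a median SD of 0.12 there and 0.21 in WT. Of all genes 53.7% had the smaller SD under the heterozygote label, with a median SD of 0.41 there and 0.43 in WT. With WT replicates 2 and 3 both left out, 26 members were positive and the median log2 fold change was 0.13. Without WT replicate 2 alone the median was 0.05 with 21 positive, and without WT replicate 3 alone it was 0.18 with 26 positive. The summed level per exon length of the core was divided by that of the regulatory particle, counted with its assembly chaperones. This ratio was 1.95, 1.97, 2.09 and 2.03 in heterozygote-labelled libraries, against 1.84, 1.67, 2.16 and 2.05 in WT libraries. WT replicate 2 had the lowest such ratio and WT replicate 3 the highest.

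**Figure D3:**
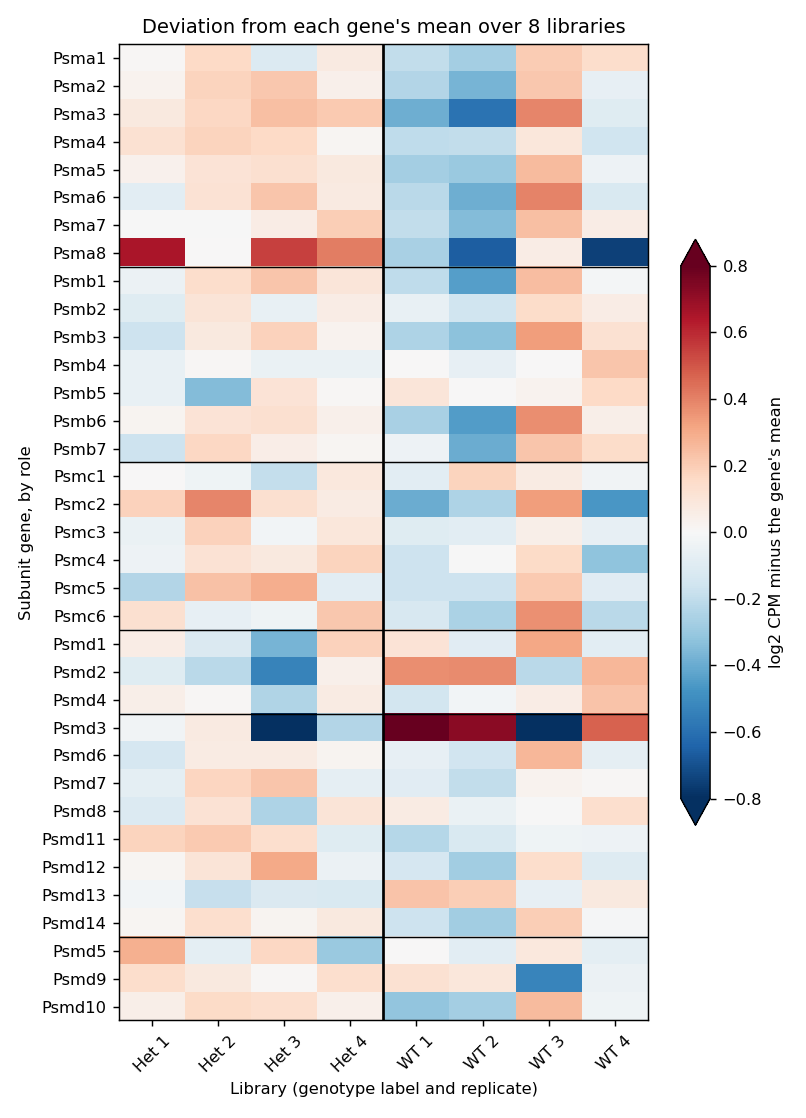
Deviation of log2 CPM from each gene's mean over 8 libraries, with 1 row per subunit gene ordered by role and 1 column per library, heterozygote-labelled (Het) left of WT, red above and blue below the mean, and colours limited to 0.8 in either direction. WT replicate 2 is blue and WT replicate 3 red for most genes, while Psmd2, Psmd3, Psmd9 and Psmd13 are blue in WT replicate 3.

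The members did not all vary together. After centring within each genotype, the log2 CPM of 14 of the 35 members had a Pearson r above 0.8 with the mean of the other members over the 8 libraries, the highest being 0.99 for Psmd14, 0.97 for Psmb6 and 0.96 for Psma3. A negative r was found for 6 members, which were Psmd13 and Psmd9 (-0.91 each), Psmd3 (-0.85), Psmd2 (-0.71), Psmc1 (-0.17) and Psmb5 (-0.16). The Psmd genes thus held both Psmd14, at the top of this order, and the 4 genes at its bottom, among them the chaperone Psmd9. These values describe 8 libraries in which WT replicates 2 and 3 were at opposite ends. The genes outside the family with the most similar pattern by the same measure were Fkbp11 (r = 0.994), Etfa (0.993), Nop16 (0.990), Rpl36a-ps1 (0.987) and Erh (0.986).

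The base composition of the transcripts moved with these differences. GC content of the longest transcript ran from 37.0% (Psmc6) to 57.4% (Psma7) among the members, and its Pearson r with the log2 fold change was -0.50 across the 35 members (Spearman rho -0.57), against -0.19 across all genes. These are correlations across genes that share the same 8 libraries. Of the 21 members under 50% GC, 19 were positive, and of the 14 at or above it, 7 did.

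The libraries themselves differed in this respect. The correlation between a gene's deviation and its GC content over all genes was -0.03, -0.09, -0.10 and -0.04 in heterozygote-labelled replicates 1 to 4, against 0.18, 0.23, -0.16 and 0.04 in WT replicates 1 to 4. WT replicate 2, the library with low subunit levels, had the highest value, and WT replicate 3, with high levels, the lowest. After each library's dependence on GC and length had been removed, 27 members were positive with a median log2 fold change of 0.11, and the median over all genes was 0.04 with 54.1% positive. The log2 fold change then moved up to 0.32 for Psmc3, 0.30 for Psmd9 and 0.20 for Psmb6, and closer to 0 for Psmb5 (-0.01), Psmd10 (0.07) and Psmd14 (0.08). The part of base composition in the spread between WT libraries was not tested.

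**Figure D4:**
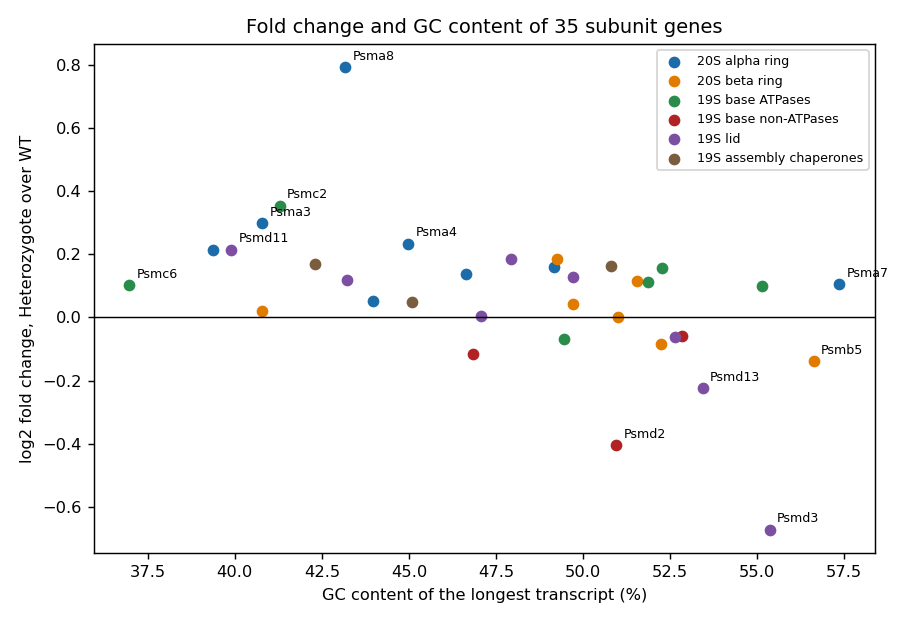
Log2 fold change, heterozygote label over WT, against the GC content of the longest transcript for the 35 subunit genes, with colours by role. Psmd2, Psmd13, Psmb5 and Psmd3 lie at the lower right, above 50% GC, and 19 of the 21 genes under 50% GC lie above 0.

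The inducible subunits Psmb8, Psmb9 and Psmb10 take the places of Psmb5, Psmb6 and Psmb7 in the immunoproteasome, which interferon is known to induce. Psmb8 exceeded Psmb5 per exon length by a ratio of 2.97, 4.07, 2.82 and 3.23 in heterozygote-labelled replicates 1 to 4, against 2.70, 2.53, 3.13 and 3.19 in WT replicates 1 to 4. Replicates 2 and 4 under the heterozygote label lay above all WT libraries, and replicates 1 and 3 among them. Psmb10 over Psmb7 was 3.40, 2.62, 2.42 and 3.05 in heterozygote-labelled libraries, against 3.36, 4.77, 2.54 and 3.26 in WT libraries. WT replicate 2 had the highest such ratio and the groups overlapped. Psmb9 over Psmb6 was 0.0819, 0.0983, 0.0962 and 0.0975 in heterozygote-labelled libraries, against 0.120, 0.139, 0.0774 and 0.108 in WT libraries. WT replicate 3 was below all heterozygote-labelled libraries and the other 3 WT libraries were above them.

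None of the 3 ratios passed an exact two-sided permutation test of the log2 ratio over the 70 assignments of the libraries, where 0.0286 is the smallest p possible. Psmb8 over Psmb5 averaged 3.27 ± 0.561 under the heterozygote label and 2.89 ± 0.324 in WT (SD, n = 4 each), a log2 difference of 0.17 with an exact p of 0.286 and 0.314 adjusted over the 3 ratios. Psmb9 over Psmb6 averaged 0.0935 ± 0.00779 under the heterozygote label and 0.111 ± 0.0256 in WT, a log2 difference of -0.22 with an exact p of 0.314 and 0.314 adjusted. Psmb10 over Psmb7 averaged 2.87 ± 0.441 under the heterozygote label and 3.48 ± 0.931 in WT, a log2 difference of -0.25 with an exact p of 0.286 and 0.314 adjusted. Without heterozygote-labelled replicate 2, Psmb8 over Psmb5 differed by 0.06, and without WT replicate 2, Psmb10 over Psmb7 differed by -0.09 on the log2 scale.

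The ratios also depended on the length used. With principal transcripts, Psmb8 over Psmb5 averaged 5.50 under the heterozygote label and 4.85 in WT, Psmb9 over Psmb6 0.108 under the heterozygote label and 0.128 in WT, and Psmb10 over Psmb7 1.27 under the heterozygote label and 1.54 in WT. Psmb8 had a log2 fold change of 0.02 (SE 0.12), Psmb9 of -0.07 (SE 0.11) and Psmb10 of -0.22 (SE 0.11), none past the threshold in edgeR. The sign of Psmb8 turned with library-size scaling, that of Psmb9 with the GC trend removed, and Psmb10 was then at -0.01.

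**Figure D5:**
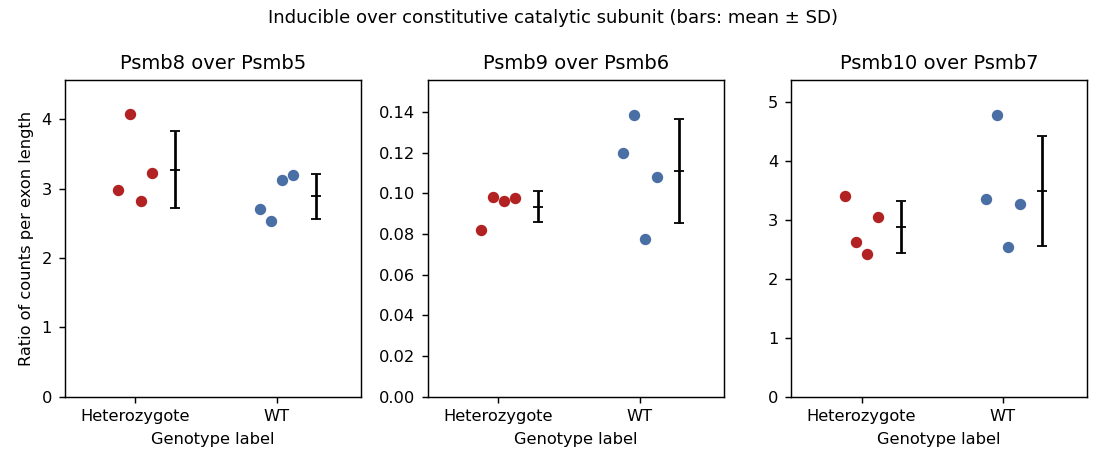
Ratio of each inducible catalytic subunit to the constitutive subunit it replaces, in counts per exon length, with 1 point per library, bars of mean ± SD, and heterozygote-labelled libraries left of WT. The ratios overlap between labels in all 3 panels, and the WT values of Psmb9 over Psmb6 run from 0.0774 to 0.139.

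Of the other genes of the pathway, 41 of 42 listed entered the test and 0 had an adjusted p under 0.05 by edgeR. With an unadjusted p under 0.05, 0 were higher and 5 lower under the heterozygote label, among them Adrm1, Mafg and Rad23b, beside 2.37% and 3.29% of all genes. The median log2 fold change of the 41 genes was -0.09, with 16 positive, where the members' median was 0.11 and that of all genes -0.02. With the GC and length trend removed, the median was -0.01 for the 41 genes, 0.11 for the members and 0.04 for all genes. Adrm1, a ubiquitin receptor on the cap, had 56.3, 63.0, 37.9 and 61.8 CPM in heterozygote-labelled libraries, against 98.6, 85.0, 56.0 and 82.8 CPM in WT libraries. Only WT replicate 3 overlapped, and Adrm1 differed by -0.56 on the log2 scale (SE 0.22, adjusted p = 0.850 by edgeR), or by -0.30 with the GC trend removed.

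Rad23b is a shuttle factor that carries ubiquitinated proteins to the cap. Rad23b had 32.5, 47.7, 35.5 and 45.1 CPM in heterozygote-labelled libraries, against 53.7, 64.8, 57.2 and 46.2 CPM in WT libraries, with a log2 fold change of -0.47 (SE 0.18, adjusted p = 0.850 by edgeR). Its replicate 2 under the heterozygote label lay just above WT replicate 4, and the other libraries separated by label.

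Among genes of transcriptional control, Mafg, a small partner protein of NRF1, had 5.76, 5.88, 4.58 and 4.30 CPM in heterozygote-labelled libraries, against 16.5, 10.8, 7.27 and 7.31 CPM in WT libraries. All heterozygote-labelled libraries lay below all WT libraries, with a log2 fold change of -1.03 (SE 0.36, adjusted p = 0.850 by edgeR). Txnl1, a thioredoxin-like protein bound to the cap, was the other pathway gene without overlap, a pattern that 1.82% of all genes showed in this direction. Txnl1 had 186, 171, 172 and 169.9 CPM in heterozygote-labelled libraries, against 191, 187, 215 and 212 CPM in WT libraries, a log2 fold change of -0.20 (SE 0.10, adjusted p = 0.850 by edgeR). With the GC and length trend removed, the log2 fold change was -0.76 for Mafg, -0.42 for Rad23b and -0.34 for Txnl1. Nfe2l1, the gene of NRF1, was low at 7.87, 7.77, 1.15 and 3.43 CPM in heterozygote-labelled libraries, against 8.40, 5.97, 6.36 and 2.20 CPM in WT libraries. Its values varied several-fold within each label, and the log2 fold change of -0.18 had an SE of 0.62.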

How the data were processed

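The deposited values are raw counts of read pairs per gene of GENCODE M17, 1 file per library, not normalized by the authors. Per the file headers, featureCounts counted on the reverse strand and kept uniquely assigned pairs, and per the submitters' processing notes STAR 2.5.1b aligned the reads. The headers name featureCounts 1.6.2 and the notes 1.5.1. Counting used strand, and 301 of 7265 exon bases of Psmd1 and 109 of 899 of Psmb5 are shared with another gene on that strand. Processed pseudogenes of Psmb5, Psmb6 and Psmb7 collected at most 86 counts each over all libraries. Without molecular identifiers, floors cover counting error only.

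Symbols and biotypes were taken from GENCODE M21 by gene identifier. Genes were filtered by filterByExpr, scaled by TMM (factors 0.946 to 1.08) and fitted by edgeR 4.0.16 robust quasi-likelihood in R 4.3.3, with genotype as the only term. Two-sided p-values were adjusted over 13992 genes by Benjamini-Hochberg with a threshold of 0.05. The biological coefficient of variation was 0.511. The scripts were tested on simulated data. DESeq2 1.42.0 and limma 3.58.1 were alternatives, with other scalings, other filters, a sex term read from sex-linked counts, a replicate block, removal of GC and length trends (loess) and each library left out. Leaving out WT replicates 2 and 3 together and the principal transcript length were added after seeing the data. Ratios used a pseudocount of 1 count. No library was a copy of another (chi-square per degree of freedom at least 37.9 between any pair). Litters were not stated in the labels.

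The members and gene lists were chosen with earlier results of these data known. Single libraries are given for members with an unadjusted p under 0.05 or groups without overlap, for the smallest p of each role group without one, for the highest and lowest member of each role group per exon length and for the catalytic subunits, and for pathway genes by the same p and overlap rule plus Psmb8, Psmb9, Psmb10 and Nfe2l1. Paaf1 was not analysed here, and some pathway genes and markers are not reported here.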

Additional observations from a re-analysis of the deposited data

Results flagged for a closer look

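In 96 groups of 4 libraries (subunit genes, pathway genes with values and ratios), 6 values stood apart from the other 3 of their group by Dixon's criterion, which chance meets in about 5% of groups, or 1 in 20. Psmb4, a structural beta subunit, had 272 CPM in heterozygote-labelled replicate 2, against 259 to 260.3 CPM in the other 3 libraries of that label. Psma4 had 415 CPM in WT replicate 3 and 338 to 349 CPM in the other WT libraries. Psmc6, an ATPase of the base, had 382 CPM in WT replicate 3 and 249 to 271 CPM in the other WT libraries. Psmb9 had 243 CPM in WT replicate 4 and 218 to 221 CPM in the other WT libraries. Txnl1 had 186 CPM in heterozygote-labelled replicate 1 and 169.9 to 172 CPM in the others of that label. The Psmb9 over Psmb6 ratio was 0.0819 in heterozygote-labelled replicate 1 and 0.0962 to 0.0983 in the others.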

How the results depend on the processing

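In all 19 alternative fits 0 subunit genes passed the threshold, and their median log2 fold change lay between 0.05 and 0.18. DESeq2 called 29 of all genes, where edgeR called 0. The labels do not say whether the replicate numbers pair mice, and the values do not settle it. Correlations of deviations between libraries of the same number were 0.01 to 0.10, none above 0.1. Of 8 libraries, 4 were closest to their own number. The edgeR fit with a replicate block called 0 genes, with 946 at an unadjusted p under 0.05 against 792 without it. That fit gave the members a median of 0.12 with 26 positive. Of 513 single-gene values 17 turned sign, in 5 genes. With library-size scaling Psmb7 was -0.035 and Psmb8 -0.040. With the GC and length trend removed Psmb7 was -0.046, Psmb9 0.154, Psmd4 0.107 and Nfe2l1 0.011. With WT replicates 2 and 3 both left out Psmb7 was -0.026 and Psmb8 -0.059. With single libraries left out Psmb7 ran from -0.079 to 0.103, Psmb8 from -0.048 to 0.103, Psmb9 from -0.104 to 0.016, Psmd4 from -0.109 to 0.009, and Nfe2l1 from -0.472 to 0.147. The log2 difference of Psmb9 over Psmb6 ran from -0.383, without WT replicate 3, to -0.103. Without WT replicate 3 the exact p of the permutation test, before adjustment over the 3 ratios, was under 0.05. The labels then separated fully, so that p was the smallest that the remaining libraries allow. The log2 difference of Psmb8 over Psmb5 ran from 0.064 to 0.241, and that of Psmb10 over Psmb7 from -0.392 to -0.090. The cause of these shifts was not tested. Members had 118 to 30149 counts per library.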
